A study of Sus scrofa with 92 samples.

Results

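Sinusoidal and vascular endothelial genes were followed in liver biopsies of pigs taken through hemorrhagic shock and polytrauma. The members are 9 genes named by symbol, TMEM204, PECAM1, CDH5, KDR, TEK, TIE1, STAB2, LYVE1 and ANGPT2, and their rows were taken from the counts of all liver libraries by fed state and timepoint. Of these, 7 were matched to a pig Ensembl identifier among the 25322 rows of the count table, and CDH5 and STAB2 were not analysed here. The set was selected on these data with the lower TMEM204 level at 2 hours already known, so the Baseline and 2 hour values of TMEM204 are given as a description with no test.

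Liver sinusoids are lined by endothelial cells that are fenestrated, lack a continuous basement membrane and take up waste molecules from blood through scavenger receptors, while the larger hepatic vessels have a closed endothelium. KDR is the main signalling receptor for VEGF in endothelial cells. TEK is the angiopoietin receptor, TIE1 its orphan partner receptor and ANGPT2 a ligand that endothelial cells store and release and that can oppose ANGPT1 at TEK. PECAM1 is an adhesion molecule of endothelial junctions that leukocytes and platelets also carry. LYVE1 is a hyaluronan receptor of lymphatic and sinusoidal endothelium, and TMEM204 encodes a claudin-like membrane protein of cell junctions.

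The animals were male juvenile Yorkshire-Landrace pigs, all held without food overnight, of which 18 stayed fasted (FS) and 5 were carbohydrate prefed (CPF) with a sugar syrup given before anesthesia was induced. All had a splenectomy, a blunt chest injury, hemorrhage and a crush injury of the liver, followed by resuscitation, so the Baseline biopsy (B) is the control and no sham group enters these comparisons. Later biopsies were taken 2, 8 and 20 hours into full resuscitation (FR2, FR8 and FR20) from the periphery of the liver. Of the FS animals 3 died and of the CPF animals 2 died.

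From 92 libraries, 88 were used. The FR8 library of CPF animal 1 held 4388 counts, and the Baseline libraries of FS animals 13, 14 and 16 held almost no albumin. The groups were thus 15, 18, 18 and 18 FS libraries and 5, 5, 4 and 5 CPF libraries at B, FR2, FR8 and FR20. Library totals ran from 6877117 to 16613261 counts, with a median of 12071957. Albumin stood at 13202 to 168246 CPM, counts scaled to a common library total, in all 88. Of the 88, 16 had a profile over 7055 other genes that lay nearer the mean of a timepoint other than the one on the label. They are FS animal 6 at FR8 and FR20, FS animal 7 at B, FR2 and FR8, FS animals 13, 14 and 16 at FR2, FR8 and FR20, FS animal 15 at FR20 and CPF animal 4 at FR20. FS animal 3 at B and CPF animal 4 at FR8 also lay nearest another timepoint, but within that margin, and were kept. In FS animals 13, 14 and 16 the FR2 library lay nearest the FR8 mean, FR8 nearest B and FR20 nearest FR2. In FS animal 7 B lay nearest FR8, FR2 nearest FR20 and FR8 nearest FR2. The FR8 and FR20 libraries of FS animal 6 each lay nearest the timepoint of the other. At FR20 FS animal 15 lay nearest FR8 and CPF animal 4 nearest B. Whether labels were exchanged within these animals was not tested. No label was changed, and results are given with and without the 16 libraries. Leaving them out favours differences between timepoints, since they were picked by how their profiles lay to the timepoint means.

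Levels of the members are CPM scaled by TMM (edgeR's trimmed mean factors) and are compared only within a gene, because gene lengths were not used. Log2 fold changes come from edgeR's quasi-likelihood fit with a term for each animal. A gene passed the test at a Benjamini-Hochberg adjusted p under 0.05 over all genes of the fit. FR2vB, FR8vB and FR20vB share the same Baseline libraries and are not independent of one another. In a biopsy, fewer endothelial cells and less RNA per endothelial cell cannot be told apart. Each animal gave 1 library per timepoint. The tests over time rest on how far changes within animals differ, and those of fed state or outcome at 1 timepoint on the spread between animals.

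TMEM204, identifier ENSSSCG00000008021, was lower at every later timepoint than at Baseline in both fed states. In FS animals the level ran from 8.42 to 26.7 CPM at B with a median of 13.1. At FR2 it ran from 4.17 to 14.4 CPM with a median of 8.08. The FR8 range was 4.57 to 16.9 with a median of 8.03, and the FR20 range was 5.25 to 12.8 with a median of 7.47. The groups overlapped at their edges, and the median of every later timepoint lay below the lowest Baseline value. Within animals it was lower in 14 of 15 at FR2, 14 of 15 at FR8 and 15 of 15 at FR20. The exception at FR2 and FR8 was animal 7, with 10.6 CPM at B, then 10.7 (FR2) and 11.5 (FR8).

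In CPF animals 1 to 5 the Baseline levels of TMEM204 were 15.4, 17.5, 11.6, 18.9 and 23 CPM. At FR2 they were 4.40, 5.44, 9.34, 4.86 and 5.51 CPM. At FR8 animals 2 to 5 had 10.9, 7.50, 6.63 and 5.34 CPM. At FR20 the 5 levels were 8.17, 11.5, 7.15, 12 and 7.40 CPM, and the highest of them, in animal 4, passed the lowest at Baseline.

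The log2 fold changes of TMEM204 from Baseline in FS animals were -0.95 (SE 0.15) at FR2, -0.84 (SE 0.15) at FR8 and -0.87 (SE 0.15) at FR20. In CPF animals they were -1.55 (SE 0.28), -1.27 (SE 0.30) and -0.92 (SE 0.27). Without the 16 libraries the FS values were -0.97, -1.07 and -0.82 and the CPF values -1.56, -1.26 and -1.06. The highest FS levels at FR8 were 16.9, 15 and 12.7 CPM in animals 16, 14 and 13, whose FR8 libraries all lay nearest the Baseline profile.

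**Figure D1:**
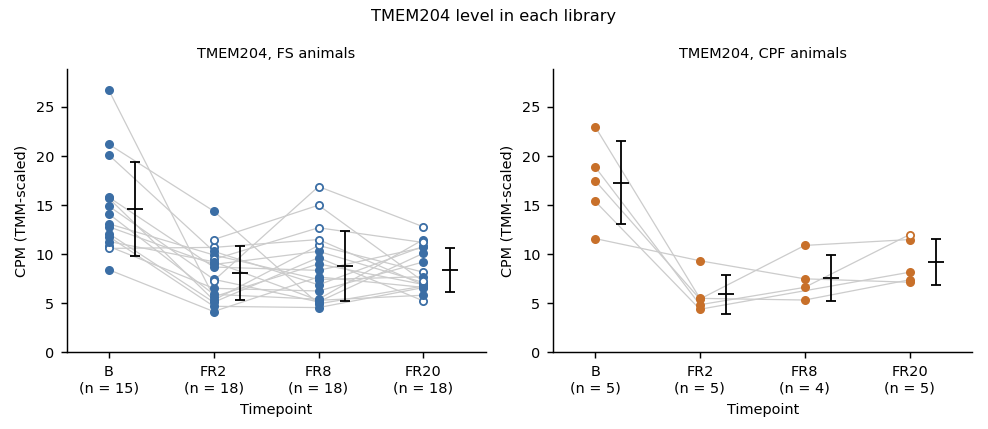
TMEM204 level in CPM (TMM-scaled, vertical axis) in each library by timepoint (horizontal axis) for FS and CPF animals, with lines joining the libraries of an animal and black bars for the group mean with SD. Open points are the 16 libraries nearer another timepoint. The Baseline mean is 14.6 CPM in FS and 17.3 CPM in CPF animals, and the later means lie between 5.91 and 9.25 CPM.

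Between the later timepoints TMEM204 was tested only for FR20 against FR8. That comparison, which the choice of the gene did not use, gave a log2 fold change of -0.02 in FS animals (95% interval -0.31 to 0.26, adjusted p = 0.95), higher in 9 of 18 animals. Without the 16 libraries it was 0.25 (SE 0.17, adjusted p = 0.281), higher in 9 of 12. In CPF animals it was 0.35 (95% interval -0.24 to 0.94, adjusted p = 0.734), and 0.21 (adjusted p = 0.868) without the 16 libraries. FR8 against FR2, given as a description only, was 0.10 in FS and 0.28 in CPF animals. CPF against FS gave -0.21 at FR8 (adjusted p = 0.987) and 0.13 at FR20 (adjusted p = 1), with intervals of -0.86 to 0.43 and -0.27 to 0.53. The counts behind these levels were 44 to 213 per library.

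Over the 88 libraries and 9698 genes with a symbol, the genes whose log2 CPM followed TMEM204 most closely were GASK1B (Pearson r 0.77), NFIA (0.75), TNS2 (0.73), LPCAT4 (0.73) and NREP (0.71). NFIA is a transcription factor and TNS2 a focal adhesion protein. None of the other members came near these values. TEK was the closest at 0.47, TIE1 stood at 0.27, KDR at 0.14, PECAM1 at 0.06, ANGPT2 at -0.23 and LYVE1 at -0.37. The libraries share animals, timepoints and depth, and these correlations are a description only.

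TEK and LYVE1 moved in opposite directions in FS animals after resuscitation began. TEK fell and LYVE1 rose at FR2vB, and the remaining 4 tested members did not pass. Over all 13667 genes tested, 41.4% passed at FR2vB, with 20.3% higher and 21.1% lower, so 2 of 6 members is a share near the background. No member passed the test with a 2-fold change as well, which 11% of all genes did. The median log2 fold change of the 6 members was 0.01, against -0.04 over all genes.

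LYVE1, identifier ENSSSCG00000029886, ran from 17.6 to 55.8 CPM at B in FS animals with a median of 30.4. At FR2 it ran from 31.4 to 116.7 CPM with a median of 55.7, so the later median matched the upper edge of Baseline. The log2 fold change was 0.84 (SE 0.19, adjusted p = 0.000305), with a higher level in 14 of 15 animals. With those 16 libraries removed, it was 0.93 (adjusted p = 2.93e-07), higher in 14 of 14. At FR8 the level ran from 18.4 to 127.7 CPM with a median of 60.1, and the log2 fold change from Baseline was 0.85 (SE 0.19, adjusted p = 0.000216), higher in 14 of 15 animals. When the 16 libraries were left out, it was 1.11 (adjusted p = 5.96e-09).

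By FR20 LYVE1 lay between 17.8 and 104.4 CPM in FS animals with a median of 38.7, a range that covers nearly all of the Baseline values. The log2 fold change of 0.42 from Baseline (SE 0.19, adjusted p = 0.0765) did not pass. From FR8 to FR20 the log2 fold change was -0.42 (SE 0.18, adjusted p = 0.138), with a lower level in 14 of 18 animals. Without the 16 libraries this change was -0.88 (adjusted p = 6.42e-06), lower in 12 of 12 animals, so the call depends on those libraries.

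TEK, identifier ENSSSCG00000005122, ran from 18.7 to 46.6 CPM at B in FS animals with a median of 27.5. At FR2 it ran from 11.3 to 38.9 CPM with a median of 18.5, just under the lowest Baseline value. The log2 fold change was -0.58 (SE 0.17, adjusted p = 0.00433), lower in 14 of 15 animals, and the exception was animal 7, which went from 27.5 to 38.9 CPM. That FR2 library lay nearest the FR20 profile. With those 16 libraries removed, the log2 fold change was -0.77 (adjusted p = 4.23e-05), lower in 14 of 14.

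At FR8 TEK ran from 11.7 to 38.0 CPM in FS animals with a median of 21.1. The log2 fold change of -0.41 (SE 0.17, adjusted p = 0.0473) was just past the threshold, with a lower level in 10 of 15 animals, and it was -0.48 (adjusted p = 0.00925) without the 16 libraries. The call was lost in 11 of 23 fits that left out 1 animal, with values of -0.48 to -0.30 over all 23. By FR20 TEK was back at Baseline level, from 14.6 to 50.2 CPM with a median of 28.6, and the log2 fold change was -0.01 (95% interval -0.34 to 0.32). FR20vFR8 gave 0.40 (SE 0.16, adjusted p = 0.117), and 0.63 (adjusted p = 0.00233) without the 16 libraries, higher in 11 of 12 animals.

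**Figure D2:**
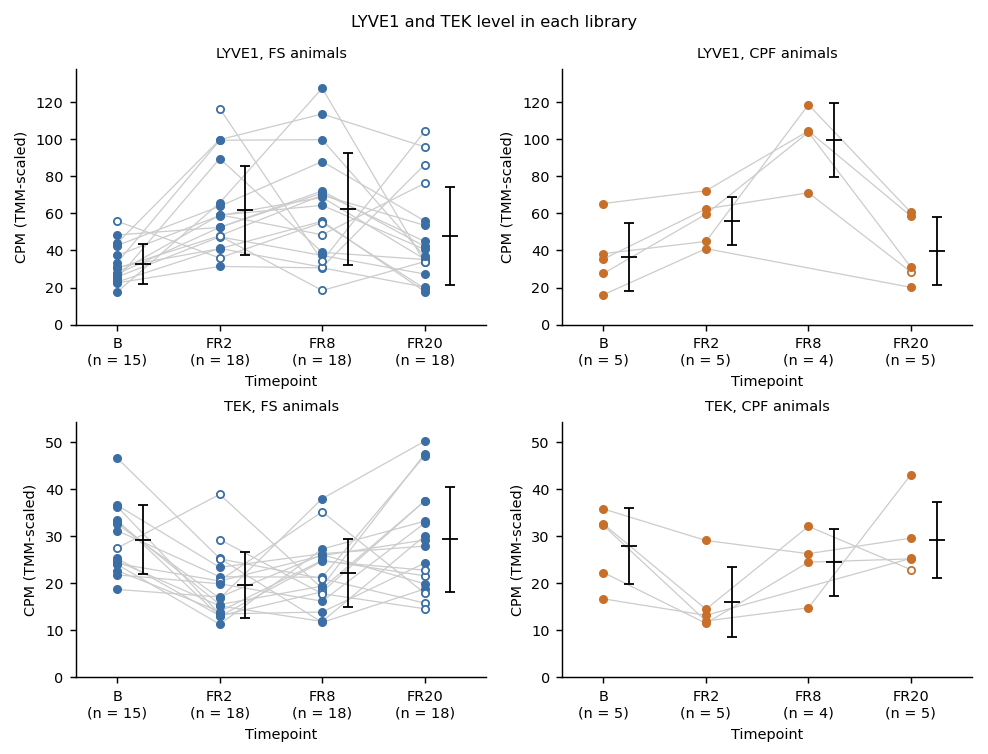
LYVE1 and TEK levels in CPM (TMM-scaled, vertical axes) in each library by timepoint, FS and CPF, with lines joining an animal's libraries, black bars for mean with SD, and open points for the 16 libraries nearer another timepoint. In FS animals the LYVE1 median goes from 30.4 at B to 60.1 at FR8 and the TEK median from 27.5 at B to 18.5 at FR2.

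Over all genes, 39.3% passed at FR8vB in FS animals, with 19.9% higher and 19.5% lower, and 11.8% passed with a 2-fold change. Of the 6 members tested, LYVE1 and TEK passed and none did with a 2-fold change, and the median was 0.07. At FR20vB, 33.8% of all genes passed (17.4% higher, 16.4% lower, and 9.94% with a 2-fold change). Of the members 1, KDR, passed, none with a 2-fold change, and the median was 0.22 against 0.04 over all genes. When the 16 libraries were left out, the shares over all genes were 51.8% at FR2vB, 53.8% at FR8vB and 43.2% at FR20vB.

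KDR, identifier ENSSSCG00000008844, ran from 23.6 to 81.5 CPM at B in FS animals with a median of 48.6 and from 38.0 to 122.0 CPM at FR20 with a median of 59.3. The groups overlapped over most of their range. Its log2 fold change at FR20vB was 0.34 (SE 0.13, adjusted p = 0.0345), higher in 11 of 15 animals, and 0.44 (adjusted p = 0.0058) without the 16 libraries. Without the animal terms it was 0.31 (adjusted p = 0.11), no longer past the threshold, and it was lost in 10 of 23 fits that left out 1 animal (0.28 to 0.43 over all 23). At FR2vB it was -0.03 and at FR8vB 0.16, neither past the test. Keeping the 3 Baseline libraries without albumin gave 0.18 at FR20vB (adjusted p = 0.315).

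PECAM1, TIE1 and ANGPT2 did not pass from Baseline in FS animals. The PECAM1 median (identifier ENSSSCG00000017277) was 78 CPM at Baseline, then 72.8, 75 and 80.4 at the later timepoints, and its log2 fold changes lay between -0.01 and 0.11. For TIE1 (ENSSSCG00000003950) the medians were 15.4, 13, 12.8 and 15 CPM, and the change at FR2vB was -0.23 (95% interval -0.49 to 0.03, adjusted p = 0.152). For ANGPT2 (ENSSSCG00000015753) the medians were 4.73, 5.63, 4.95 and 6 CPM, and the change at FR2vB was 0.36 (95% interval -0.00 to 0.72, adjusted p = 0.106). Without the 16 libraries TIE1 at -0.30 (adjusted p = 0.0327) and ANGPT2 at 0.40 (adjusted p = 0.0491) passed at FR2vB.

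The FR2 library of FS animal 14 held the highest values of 4 members in its group, 220.7 CPM of PECAM1, 116.7 of LYVE1, 25.6 of TIE1 and 11.5 of ANGPT2. Its summed stellate cell and fibroblast markers were 2436 CPM, the highest of the FS libraries at FR2, and its neutrophil markers 71.5 CPM. It is among the 16 libraries.

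**Figure D3:**
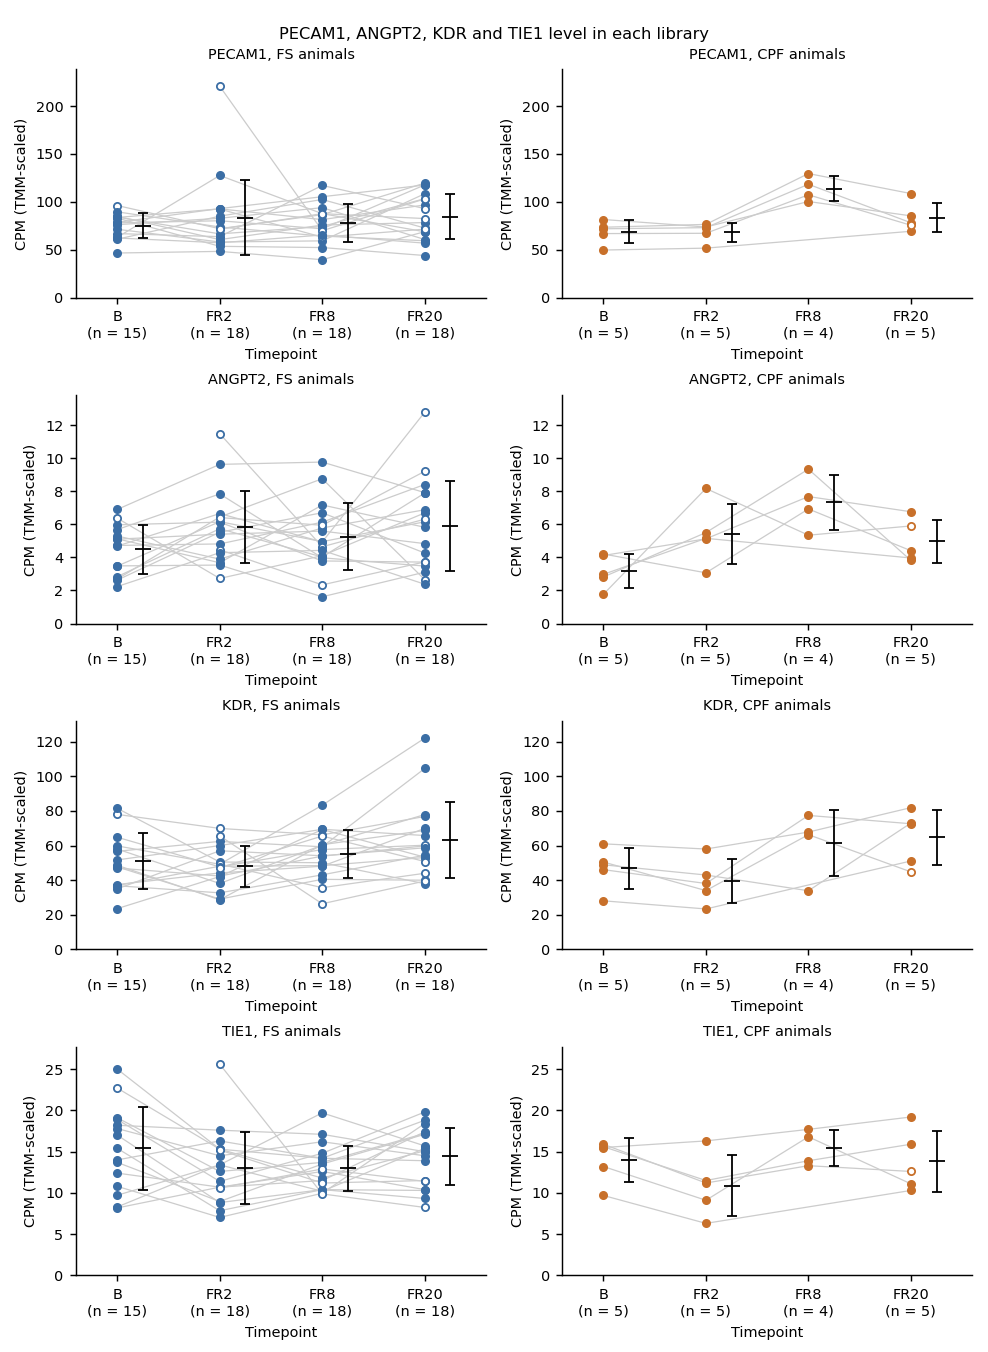
PECAM1, KDR, TIE1 and ANGPT2 levels in CPM (TMM-scaled, vertical axes) in each library by timepoint, FS and CPF, with lines joining an animal's libraries, black bars for mean with SD, and open points for the 16 libraries nearer another timepoint. The 4 CPF libraries at FR8 lie between 100.3 and 129.5 CPM of PECAM1, and the CPF Baseline range is 49.6 to 81.5.

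Between later timepoints in FS animals no member passed edgeR's test. At FR8vFR2, where 28.4% of all genes passed, 0 of 6 members did, 0 at an unadjusted p under 0.05 and 0 by DESeq2. At FR20vFR8, where 6.39% of all genes passed, 0 of 7 members did, 2 at an unadjusted p under 0.05 and 0 by DESeq2. With those 16 libraries removed, KDR passed at FR8vFR2 (0.34, adjusted p = 0.0244), and the shares of all genes were 48.6% and 31.7%.

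In CPF animals members passed from Baseline at FR8 only: PECAM1, LYVE1 and ANGPT2 rose in all 4 animals with an FR8 library. Over all genes 13.3% passed at FR8vB in CPF animals, 6.31% higher and 6.99% lower, and 8.83% passed with a 2-fold change. The share of all genes was also highest there, against 3.41% at FR2vB and 0.893% at FR20vB. Of the 6 members 3 passed, all higher, and LYVE1 and ANGPT2 also passed with a 2-fold change. The median of the 6 was 0.46 against 0.04 over all genes.

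LYVE1 in CPF animals 1 to 5 was 16.1, 38.3, 65.4, 35.4 and 27.6 CPM at B, and in animals 2 to 5 it was 118.8, 104.6, 71.2 and 103.9 at FR8. The log2 fold change was 1.37 (SE 0.35, adjusted p = 0.00844). ANGPT2 was 2.98, 4.21, 4.12, 1.77 and 2.82 CPM at B and 6.94, 7.69, 5.35 and 9.35 at FR8. Its log2 fold change was 1.15 (SE 0.34, adjusted p = 0.0195). These ANGPT2 levels rest on few reads, from 13 counts in the lowest Baseline library.

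PECAM1 in CPF animals was 49.6, 71.8, 73.4, 66.8 and 81.5 CPM at B and 118.3, 129.5, 107.3 and 100.3 at FR8. The log2 fold change was 0.65 (SE 0.22, adjusted p = 0.041). The PECAM1 call was lost when any 1 of the 5 CPF animals was left out (0.59 to 0.74, adjusted p = 0.0729 to 0.141). Without CPF animal 5 LYVE1 at 1.18 (adjusted p = 0.0782) and ANGPT2 at 0.92 (adjusted p = 0.149) did not pass either. When the 16 libraries were left out, none of which is a CPF library of B or FR8, the 3 genes passed at adjusted p = 4.89e-05 for LYVE1, 0.00452 for ANGPT2 and 0.0127 for PECAM1, where 24.3% of all genes passed.

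At FR2vB in CPF animals 3.41% of all genes passed edgeR's test and 0 of 6 members did, with 3 at an unadjusted p under 0.05 and 0 by DESeq2. TEK had 16.7, 22.3, 35.8, 32.6 and 32.3 CPM at B and 13.2, 11.5, 29.1, 14.5 and 12 at FR2, lower in 5 of 5 animals, with a log2 fold change of -0.81 (SE 0.30, adjusted p = 0.114). LYVE1 was higher in 5 of 5, with 0.75 (SE 0.33, adjusted p = 0.187), and ANGPT2 in 4 of 5, with 0.75 (SE 0.33, adjusted p = 0.179). Without the 16 libraries TEK (-0.80, adjusted p = 0.0323) and LYVE1 (0.74, adjusted p = 0.0277) passed, where 13.6% of all genes did.

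The LYVE1 level in CPF animals at FR20 ran from 20.1 to 60.6 CPM. FR20vFR8 gave -1.24 (SE 0.35, adjusted p = 0.192), lower in 4 of 4 animals, in a comparison where 0.0220% of all genes passed. Of 7 members 0 passed by edgeR, 1 at an unadjusted p under 0.05 and 0 by DESeq2. With those 16 libraries removed, LYVE1 passed at -1.15 (adjusted p = 0.0127), where 2.05% of all genes did. At FR8vFR2, with 7.21% of all genes past the test, 0 of 6 members passed by edgeR, 2 at an unadjusted p under 0.05 and 1 by DESeq2, which was PECAM1 at 0.66 (edgeR adjusted p = 0.0543). At FR20vB, with 0.893% of all genes past the test, 0 of 6 passed by edgeR, 1 at an unadjusted p under 0.05 and 0 by DESeq2.

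**Figure D4:**
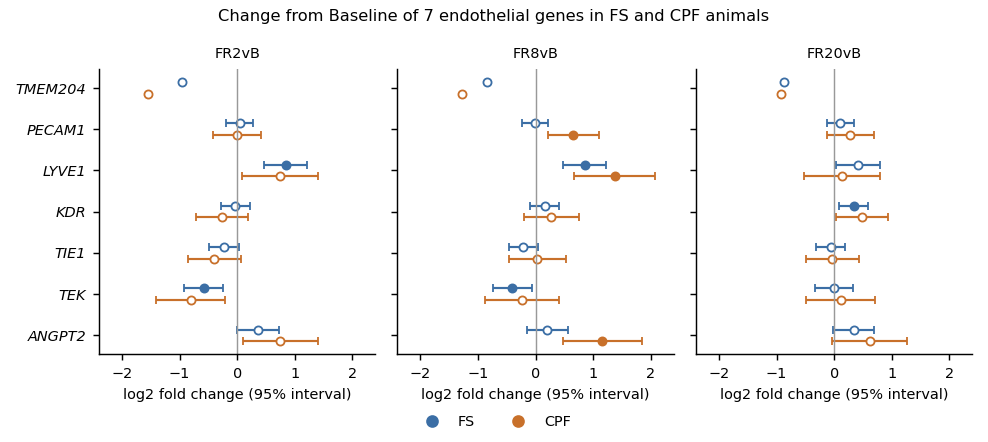
Log2 fold change from Baseline (horizontal axes) with its 95% interval for each member (vertical axis) at FR2, FR8 and FR20 in FS (blue) and CPF (orange) animals, with filled points past the test and TMEM204 drawn without interval or test. In FS animals LYVE1 stands at 0.84 and TEK at -0.58 at FR2, and in CPF animals LYVE1 at 1.37 and ANGPT2 at 1.15 at FR8.

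Whether the fed states differed in these changes was tested with the interaction, the CPF change minus the FS change. At FR2vB, FR8vB and FR20vB 0% of all genes passed edgeR's test, and 0 of 6 members did, by DESeq2 too. At an unadjusted p under 0.05 there were 0, 2 and 0 members. The 2 were PECAM1 at FR8vB, with a difference of 0.66 (95% interval 0.16 to 1.16, adjusted p = 0.999), and ANGPT2, with 0.95 (95% interval 0.18 to 1.72, adjusted p = 0.999). LYVE1 differed by 0.52 there (95% interval -0.27 to 1.31), so the CPF change was not shown to exceed the FS change.

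CPF against FS at the same timepoint gave no member past edgeR's test. At B 0.0342% of all genes passed, and at FR2, FR8 and FR20 0% did. The count at an unadjusted p under 0.05 was 0 at B, 0 at FR2, 1 at FR8 and 0 at FR20, and DESeq2 called 0 at each. The 1 was PECAM1 at FR8, with 0.55 (95% interval 0.15 to 0.94, adjusted p = 0.882). Animals that died were set against those that lived, 5 against 15 at B, 5 against 17 at FR8 and 5 against 18 at FR2 and FR20. This likewise gave 0% of all genes and 0 members at each of the 4 timepoints, 0 at an unadjusted p under 0.05 and 0 by DESeq2. LYVE1 had the largest log2 fold change of the members tested at each timepoint, 0.50 (95% interval -0.00 to 1.00) at B and 0.42 (95% interval -0.06 to 0.91) at FR2. The FR8 value was 0.42 (95% interval -0.25 to 1.09) and the FR20 value 0.70 (95% interval -0.01 to 1.41).

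**Figure D5:**
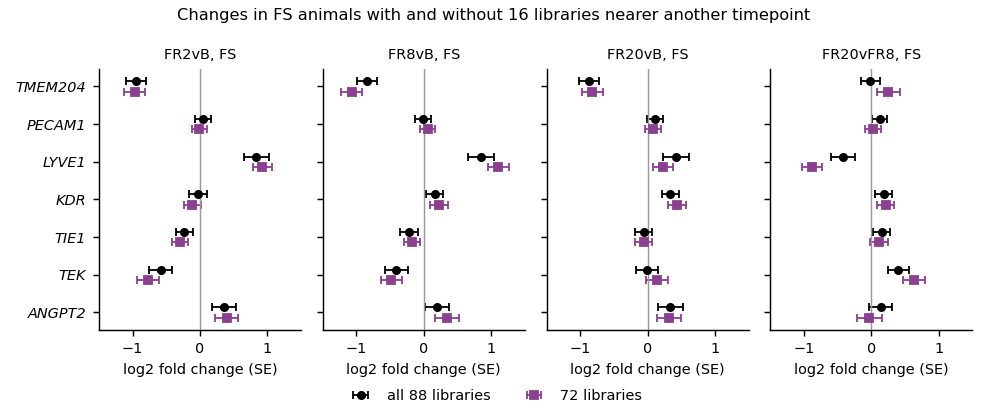
Log2 fold change with SE (horizontal axes) of each member (vertical axis) in FS animals at FR2vB, FR8vB, FR20vB and FR20vFR8, from all 88 libraries (black circles) and without the 16 libraries nearer another timepoint (purple squares). LYVE1 at FR20vFR8 in FS animals goes from -0.42 to -0.88 and TEK from 0.40 to 0.63.

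Other endothelial genes were counted in 6 lists in FS animals, to be read against the shares of all genes past the test, 41.4% at FR2vB (20.3% higher, 21.1% lower), 39.3% at FR8vB (19.9% higher, 19.5% lower) and 33.8% at FR20vB (17.4% higher, 16.4% lower). These counts describe the lists, and no list was tested against the other genes. Of 14 identifiers of sinusoidal endothelium tested from 12 matched symbols, 1 rose and 4 fell at FR2vB, 1 rose and 5 fell at FR8vB, and 3 rose and 2 fell at FR20vB. In total these shares were near those of all genes, with fewer higher and more lower at FR2vB and FR8vB. The medians were -0.24, -0.09 and -0.06. The counts without the 16 libraries were 1 and 3, 3 and 6, and 2 and 1. In all 6 lists such counts are to be read against the 51.8%, 53.8% and 43.2% of all genes that passed in that fit. STAB1, a scavenger receptor, fell from 24.8 ± 9.94 CPM (SD, n = 15) to 12.5 ± 5.30 (n = 18) at FR2, a log2 fold change of -0.97 (SE 0.20, adjusted p = 6.54e-05). OIT3 fell by 0.85 (SE 0.22, adjusted p = 0.00128). In CPF animals STAB1 fell by 1.5 at FR2vB (SE 0.36, adjusted p = 0.0125).

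Other named genes of this list passed at 1 or more timepoints. GATA4, a transcription factor that specifies sinusoidal endothelium, rose by 0.83 at FR8vB (SE 0.19, adjusted p = 0.000259), from 9.09 to 15.6 CPM on average. HGF, a hepatocyte growth factor made by non-parenchymal cells, rose by 0.71 at FR2vB (SE 0.29, adjusted p = 0.0445) and by 0.76 at FR20vB (adjusted p = 0.0334), the latter at adjusted p = 0.0736 without the 16 libraries. The fatty acid receptor CD36, which hepatocytes and macrophages also carry, fell at its main identifier by 1.26 at FR8vB (SE 0.36, adjusted p = 0.00364) and by 0.87 at FR20vB (SE 0.34, adjusted p = 0.0405). The FR20vB change of CD36 was -0.80 (adjusted p = 0.0736) without the 16 libraries. The 5 that fell at FR8vB also count a further identifier of CD36, with a mean of 0.34 CPM at B. BMP6, which regulates hepcidin, fell by 0.60 at FR20vB (SE 0.13, adjusted p = 0.000258), from 264.4 to 178.0 CPM. CD209, a lectin that dendritic cells also carry, rose by 1.96 at FR20vB (SE 0.52, adjusted p = 0.00243) from a mean of 0.35 CPM.

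Of 21 vascular endothelial identity identifiers tested, 3 rose and 4 fell at FR2vB, 1 rose and 4 fell at FR8vB, and 3 rose and 0 fell at FR20vB, with medians of 0.00, -0.07 and 0.15. All 3 shares were below those of all genes, 41.4%, 39.3% and 33.8%. With the 16 libraries left out, the counts were 4 and 5, 4 and 6, and 1 and 0. NOS3, the endothelial nitric oxide synthase, rose by 0.90 at FR2vB (SE 0.23, adjusted p = 0.00125), from 8.28 ± 3.13 CPM (SD, n = 15) to 16.7 ± 10.3 (n = 18). ECSCR, an endothelial surface receptor, rose by 0.92 (SE 0.25, adjusted p = 0.00198). CD34 fell by 1.18 (SE 0.28, adjusted p = 0.000481) and TSPAN7 by 0.87 (SE 0.26, adjusted p = 0.00512).

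At FR8vB the angiogenic factor EGFL7 rose by 0.51 (SE 0.13, adjusted p = 0.00158), from 83.2 to 121.9 CPM on average. The junction protein JAM2 fell by 0.83 (SE 0.25, adjusted p = 0.00608) from a mean of 0.91 CPM, and CD34 fell by 0.82 (SE 0.27, adjusted p = 0.0125). At FR20vB MMRN2 rose by 1.25 (SE 0.46, adjusted p = 0.0299) from a mean of 0.52 CPM, and ECSCR rose by 0.70 (adjusted p = 0.0225), which was 0.47 (adjusted p = 0.133) without the 16 libraries.

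Of 13 identifiers for transcription factors of endothelium, 2 rose and 0 fell at FR2vB, 1 rose and 1 fell at FR8vB, and 1 rose and 0 fell at FR20vB, with medians of 0.09, -0.09 and 0.10. Each share was below that of all genes (41.4%, 39.3% and 33.8%). The counts without the 16 libraries were 3 and 0, 1 and 1, and 1 and 2. EPAS1, the hypoxia-inducible factor 2 alpha subunit, rose by 0.87 at FR2vB (SE 0.15, adjusted p = 3.69e-06), from 191.2 ± 44.9 CPM (SD, n = 15) to 351.7 ± 90.3 (n = 18). HHEX rose by 0.78 (SE 0.20, adjusted p = 0.00152). NR2F2, the venous identity factor, rose by 0.52 at FR8vB (SE 0.13, adjusted p = 0.00163) and by 0.67 at FR20vB (SE 0.14, adjusted p = 8.68e-05). ERG fell by 0.40 at FR8vB (SE 0.11, adjusted p = 0.0038). Hepatocytes also express EPAS1 and HHEX.

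Among VEGF ligands and receptors other than KDR, 6 identifiers were tested. At FR2vB 2 rose and 1 fell, at FR8vB 1 rose and 1 fell, and at FR20vB 1 rose and 0 fell, where 41.4%, 39.3% and 33.8% of all genes passed. With the 16 libraries left out, the counts were 2 and 2, 1 and 1, and 1 and 0. The receptor FLT1 rose at all 3, by 0.94 (SE 0.25, adjusted p = 0.0021), 0.66 (SE 0.25, adjusted p = 0.0274) and 0.80 (SE 0.25, adjusted p = 0.00954). VEGFA rose by 0.42 at FR2vB (SE 0.11, adjusted p = 0.0016), from 66.4 to 90.2 CPM on average, and VEGFB fell by 0.33 (SE 0.13, adjusted p = 0.0404). At FR8vB in CPF animals FLT1 rose by 1.43 (SE 0.48, adjusted p = 0.0395) and VEGFB fell by 1.11 (SE 0.26, adjusted p = 0.00505).

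Angiopoietin, Notch and sprouting genes gave 17 identifiers, of which 5 rose and 4 fell at FR2vB, 4 rose and 3 fell at FR8vB, and 6 rose and 1 fell at FR20vB, where 41.4%, 39.3% and 33.8% of all genes passed. The medians were 0.21, -0.04 and -0.04. The counts without the 16 libraries were 6 and 4, 6 and 5, and 5 and 2. The ligands of TEK other than ANGPT2 were low and fell at FR2vB, ANGPT1 by 1.88 (SE 0.45, adjusted p = 0.000594) from a mean of 0.52 CPM, and ANGPT4 by 1.47 (SE 0.35, adjusted p = 0.000654) from 1.75 CPM. UNC5B, a netrin receptor of sprouting vessels, rose by 1.64 (SE 0.25, adjusted p = 6.25e-07), 0.92 (adjusted p = 0.00165) and 1.14 (adjusted p = 0.000236) at FR2vB, FR8vB and FR20vB. The Notch ligand DLL1 rose by 1.14 (SE 0.22, adjusted p = 2.86e-05), 0.72 (adjusted p = 0.00503) and 1.24 (adjusted p = 8.42e-06). NOTCH4 fell by 0.39 at FR8vB (SE 0.13, adjusted p = 0.0133). ANGPTL4, a lipoprotein lipase inhibitor that hepatocytes express, fell by 1.44 at FR8vB (SE 0.33, adjusted p = 0.00034).

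Of 8 endothelial activation identifiers, 2 rose and 0 fell at FR2vB in FS animals, 0 rose and 1 fell at FR8vB, and 0 passed at FR20vB. Of all genes 20.3% were higher at FR2vB, so the share that rose was near the background. The medians were 0.46, -0.29 and 0.09. With the 16 libraries left out, the counts were 5 and 0, 0 and 2, and 0 and 0. PLAT, the tissue plasminogen activator, rose from 10.1 ± 6.54 CPM (SD, n = 15) to 49.4 ± 42.5 (n = 18), a log2 fold change of 2.07 (SE 0.40, adjusted p = 3.28e-05), and in CPF animals by 2.83 (SE 0.69, adjusted p = 0.0156). ICAM1, a leukocyte adhesion molecule, rose by 0.58 (SE 0.14, adjusted p = 0.000516). SELP, which platelets also carry, fell by 0.70 at FR8vB (SE 0.26, adjusted p = 0.0257). Each list was written with earlier results of these data known.

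Markers of other cell types were read in the same libraries. Neutrophil markers, 6 matched of 8 with CSF3R at 0 in all 88 libraries, summed to 0.121 to 15.6 CPM at B and 2.44 to 71.5 at FR2 in FS animals, and to 0.325 to 3.74 at B and 4.33 to 49.6 at FR8 in CPF animals. In FS animals 3 of 4 tested rose at FR2vB, for example S100A9 by 3.61 (SE 0.63, adjusted p = 6.64e-06). Hepatocyte markers, 9 matched of 12, summed to 91417 to 182161 CPM at B and 57780 to 137027 CPM at FR2 in FS animals. Their later sums were 65367 to 154868 CPM (FR8) and 32561 to 125776 CPM (FR20). In CPF animals the hepatocyte sum was 125094 to 181474 CPM at B and 79576 to 118512 at FR8.

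Kupffer cell and macrophage markers, 7 matched of 12 with CLEC4F at 0 throughout, summed to 1038 to 1688 CPM at B and 824.6 to 1616 at FR2 in FS animals, and 4 of 6 tested fell. In CPF animals that sum was 1268 to 1501 CPM at B and 719.4 to 869.0 at FR8. Stellate cell and fibroblast markers, 9 matched of 12, summed to 445.2 to 1648 CPM at B and 363.5 to 2436 at FR2 in FS animals, and 4 of 9 fell while 1 rose. Of the other marker lists in FS animals at FR2vB, cholangiocyte markers gave 1 higher and 0 lower of 4 tested, T and NK cell markers 0 and 3 of 8, and B cell markers 0 and 2 of 4. Platelet markers gave 0 of 1, striated muscle markers 0 and 1 of 7, and erythroid markers 0 and 1 of 4, where 41.4% of all genes passed (20.3% higher, 21.1% lower). In CPF animals at FR8vB the T and NK cell list had 0 higher and 4 lower, the B cell and platelet lists 0 and 1 each, and the cholangiocyte, muscle and erythroid lists 0 past the test, where 13.3% of all genes passed.

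The part of these shifts in the changes of TMEM204, TEK, LYVE1, PECAM1 and ANGPT2 was not tested.

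For LYVE1, which lymphatic vessels also express, lymphatic endothelial markers (4 matched of 5) were read as well. They summed to 15.5 to 100.7 CPM at B in FS animals, and later to 1.21 to 86.3 CPM (FR2) and 3.02 to 91.2 CPM (FR8). RELN and PROX1 of this list were each at 0 in 2 of the 88 libraries, so the lowest sums are not read as low lymphatic levels. In CPF animals the lymphatic sum was 32.1 to 63.8 CPM at B and 39.6 to 91.2 at FR8. Of the 4, 0 passed edgeR's test at FR2vB and FR8vB in FS animals or at FR8vB in CPF animals. Their medians over the 88 libraries were 25.1 CPM for RELN, 17.7 for PROX1, 5.79 for FLT4 and 0.158 for PDPN. RELN is also on the stellate cell list, so the sum is not specific to lymphatic vessels.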

How the data were processed

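Reads from liver biopsies of 23 pigs had been processed by the authors with CASAVA 1.8.2, TopHat 1.5.0 on Sscrofa10.2, SAMtools and HTSeq-count. The deposited values are raw counts per pig Ensembl gene, not normalized and with replicates not pooled. The counting mode and strand option are not given in the sources used here, so reads shared by overlapping genes are uncertain. A symbol was found for 12504 of 25322 rows, in a gene name table or in the pairs of identifier and symbol that the study lists. The members, lists and tests were chosen with earlier results of these data known. Depth was 6877117 to 16613261 counts per library, which limits ANGPT2 (13 to 169 counts) and TMEM204 (44 to 213 counts) most.

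Counts were tested with edgeR 4.0.16 and limma 3.58.1 in R 4.3.3 (TMM scaling, sum of CPM at least 10, quasi-likelihood F test, 2-sided), with Benjamini-Hochberg adjustment over the genes of each fit. Changes over time were fitted on 88 libraries, with 1 term per animal and, for each fed state, 1 term per later timepoint. Fed states and outcomes were compared on the libraries of 1 timepoint, the latter with a fed state term. Numbers pair libraries because they mark the same animal. After removal of group means, libraries of an animal had a median correlation of 0.205 (94 of 126 over 0.1), and those of other animals -0.016 (414 of 1791). TMEM204 was left out of member counts in comparisons that use B or FR2. Genes named from lists are the 2 highest and 2 lowest log2 fold changes among those past the test in FS animals at FR2vB, FR8vB and FR20vB, shown here for the endothelial lists and only in part for the marker lists. The genes nearest TMEM204 are the 5 with the highest Pearson correlation of log2 CPM (prior count 2). Marker sums and the albumin level are CPM on the unscaled library total. A profile counted as nearer another timepoint at a correlation margin over 0.2. No library was a copy of another.

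Alternatives were RLE size factors, no filter on low counts, filterByExpr, DESeq2 1.42.0, a likelihood ratio test with tagwise dispersion, a 2-fold condition, the 3 Baseline libraries without albumin kept, no animal terms and each animal left out, the last with the dispersion trend and genes of the full fit. The fit without the 16 libraries was added after seeing the data. The tests were tested on simulated data. Python 3.11.15 made the tables, with pandas 2.3.3, numpy 2.4.6 and scipy 1.17.1, and matplotlib 3.10.9 drew the figures.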

Additional observations from a re-analysis of the deposited data

Results flagged for a closer look

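At FR2 CPF animal 3 stood apart from the other 4 CPF animals in 2 members, with 9.34 CPM of TMEM204 (others 4.40 to 5.51) and 29.1 CPM of TEK (others 11.5 to 14.5). Of 28 groups of 4 or 5 libraries examined, these 2 were past Dixon's 95% critical value, and chance gives about 1 in 20. Both flags fall on the same library. The TMEM204 flag uses values that the choice of the gene drew on, so it is a description only.

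The 3 FS Baseline libraries without albumin are outside every comparison of the report. They held more of 3 members than any other FS Baseline library, on CPM without TMM scaling. In FS animals 13, 14 and 16, in that order, PECAM1 stood at 282.8, 432.9 and 477.3 CPM, against 37.3 to 106.4 in the others. TIE1 stood at 28.4, 35.2 and 32.6 CPM, against 6.28 to 25.2. ANGPT2 stood at 15.8, 36.3 and 17 CPM, against 1.99 to 7.06. LYVE1 went the other way, with 8.37, 12.9 and 10.9 CPM, against 13.3 to 61.8 in the others. In the same libraries albumin had 4, 899 and 5 counts, and the striated muscle gene ACTA1 stood at 18973 to 27283 CPM.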

How the results depend on the processing

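Of 4040 values of single members under the alternatives, 3979 stayed on the same side of the threshold, of which 201 were past it in neither fit and differed in sign, 35 were no longer past it, 26 became past it and 0 called values changed sign. Of 132 results, 116 stayed on 1 side of the threshold under every alternative run, and most of these were never past it. TEK and LYVE1 at FR2vB and LYVE1 at FR8vB in FS animals passed under every alternative, except with the 2-fold condition. The other calls of the main fit were lost under some alternative. They are TEK at FR8vB and KDR at FR20vB in FS animals, and PECAM1, LYVE1 and ANGPT2 at FR8vB in CPF animals. The cause of the other changes was not tested.

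Without the 16 libraries nearer another timepoint, the members past the test went from 2 to 4 at FR2vB, 0 to 1 at FR8vFR2 and 0 to 2 at FR20vFR8 in FS animals, and in CPF animals from 0 to 2 at FR2vB, 0 to 1 at FR8vFR2 and 0 to 1 at FR20vFR8. With a 2-fold condition they went to 0 at FR2vB, FR8vB and FR20vB in FS animals. DESeq2 gave 1 at FR8vFR2 in CPF animals. With the 3 Baseline libraries without albumin kept, FR8vB in CPF animals gave 1 in place of 3 and TEK at FR8vB in FS animals adjusted p = 0.0514. In that fit LYVE1 at FR20vB (0.70, adjusted p = 0.0105) and TIE1 at FR8vB (-0.37, adjusted p = 0.0232) and FR2vB passed in FS animals. KDR at FR20vB lost its call there (0.18, adjusted p = 0.315). In the fit without the replicate block, the animal terms that carry the pairing, FR20vB in FS animals gave 0 in place of 1, and PECAM1 at FR8vB in CPF animals was no longer past the test, with 2 members left.

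Leaving out animals in turn gave 1 to 3 members at FR8vB, 0 to 2 at FR20vB and 0 to 1 at FR20vFR8 in FS animals, and 0 to 3 at FR8vB and 0 to 1 at FR8vFR2 in CPF animals. With all animals kept, 39.3%, 33.8% and 6.39% of all genes passed in those FS comparisons, and 13.3% and 7.21% in the CPF ones. In FS animals TEK at FR8vB lost its call without FS animal 1, 4, 8, 9, 10, 11, 12, 15 or 18 or CPF animal 1 or 2, and KDR at FR20vB without FS animal 2, 3, 4, 5, 9, 10, 11, 12, 17 or 18. Calls were gained by TIE1 at FR2vB without animal 14 and at FR8vB without animal 5, by ANGPT2 at FR2vB without 7, by LYVE1 at FR20vB without 1 or 7 and at FR20vFR8 without 6 or 14, and by TEK at FR20vFR8 without 16. PECAM1 at FR8vB in CPF animals lost its call without any 1 CPF animal and, with all animals, with no filter on low counts, and at FR8vFR2 it gained one without FS animal 7, 8, 13, 14 or 16. Without CPF animal 5, FR8vB gave 0, with LYVE1 at 1.18 (adjusted p = 0.0782) and ANGPT2 at 0.92 (adjusted p = 0.149). The member counts of ANGPT2 and TMEM204 and the 4 or 5 CPF animals limit what these tests could detect.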
